A study of Mus musculus with 12 samples.

Results

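Histone proteins package DNA, and most of the H1, H2A, H2B, H3 and H4 protein made during DNA replication comes from genes that lie side by side in a few clusters. As background, the mRNAs of these replication-dependent genes are made in S phase under the coactivator NPAT, and most of them end in a short 3′ stem-loop that the protein SLBP binds, in place of a poly(A) tail. Some clustered genes also give polyadenylated transcripts, mainly outside S phase or in differentiated cells. A library primed from poly(A) tails, as the SMART-Seq kit used here makes, therefore reads the polyadenylated or internally primed portion of histone mRNA, and the levels below are levels of that portion.

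The set comprised every gene of the count table whose GENCODE M21 symbol starts with Hist1h, Hist2h, Hist3h or Hist4h and that had 10 or more reads summed over the 12 libraries. The annotation holds 70 such genes, 68 of them were in the table of 47069 genes, and 57 reached 10 reads. Of these 57, 5 encode H1, 15 H2A, 15 H2B, 10 H3 and 12 H4, and 49 lie on chromosome 13, 4 on chromosome 3, 3 on chromosome 11 and 1 on chromosome 6. Hist1h4b, with 7 reads, fell just outside the limit, and Hist3h2bb-ps, a pseudogene with 16 reads, just inside. Of the 11 genes below the limit, 7 had 0 reads, and among those were Hist1h2aa and Hist1h2ba, known as testis histone genes. In 5 of these 7 (Hist2h2aa1, Hist2h2aa2, Hist2h3b, Hist2h3c1 and Hist2h2bb) every 100-base stretch of transcript is shared with another gene, so a count of 0 does not show that they were silent.

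RNA came from mouse liver cancer organoids, cultures grown from liver tumours that diethylnitrosamine had induced in Lgr5–DTR–GFP knock-in mice (strain C57BL/6, genotype LGR5-DTRGFP+ in all 12 libraries), in which the Lgr5 promoter drives a diphtheria toxin receptor and GFP. Cells were sorted by GFP into LGR5+ and LGR5- fractions, with dead and CD45+ cells gated out, from organoids that were untreated or exposed to 5-fluorouracil (5-FU), a pyrimidine analogue that blocks thymidylate synthesis. This gave 4 groups of 3 libraries: untreated LGR5-, untreated LGR5+, 5-FU LGR5- and 5-FU LGR5+. The study's methods give ranges for the age of the mice at tumour induction and collection, and 5-FU doses for other assays, but not which age, dose or duration belongs to these libraries, nor is it stated whether the libraries of a group came from separate cultures or animals, so that P values measure the spread between these libraries, which may be technical.

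The libraries held 13750591 to 19323514 reads. The mitochondrial share was 6.93% in untreated LGR5- replicate 3 and 6.44% in 5-FU LGR5- replicate 3, against 1.47% to 3.08% in the other 10. Lgr5 itself had 419 to 649 reads in the untreated LGR5- libraries and 380 to 476 in the untreated LGR5+ libraries, with 312 to 490 and 465 to 487 reads in the corresponding 5-FU libraries, so the mRNA did not separate the sorted fractions and the names LGR5+ and LGR5- below are those of the sort. Of the cell type markers, the 5 cholangiocyte genes summed to 2361 to 11872 CPM (reads scaled to a common library total). Of the other lists, the hepatocyte genes Ttr, Hnf4a and Cyp3a11, the T cell gene Cd3e and the endothelial genes Cdh5 and Stab2 had 3 reads or fewer in every library, while other genes of the same lists were read (Afp, Lyz2, Cd68 and Kdr, and Dcn of the fibroblast list).

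The stem-loop is shown because it is what sets these mRNAs apart, and because it occurs in genes that fell, in genes that passed no test and in the gene that rose. A search of the GENCODE M21 transcripts (GRCm38) after the stop codon for 6 base pairs closing a loop of 4 bases found it in 37 of the 57 members, 21 to 54 bases past the stop codon. In 14 members the transcript model ends too early or has no coding part, and in 6 the model runs past the stop codon without it. The capitals mark stem and loop, with the arms GGCTCT and AGAGCC in 27 members and GGCCCT and AGGGCC in 9, the latter all H4 genes.
Hist1h4d: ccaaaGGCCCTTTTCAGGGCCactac
Hist1h4i: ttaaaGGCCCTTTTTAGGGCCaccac
Hist1h2ao: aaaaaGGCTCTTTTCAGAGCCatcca
Hist1h1e: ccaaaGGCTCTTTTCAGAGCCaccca
Hist1h1c: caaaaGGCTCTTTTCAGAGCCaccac
Hist1h3a: ccaaaGGCTCTTTTCAGAGCCacaca
Hist1h2bk: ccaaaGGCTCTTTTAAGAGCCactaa
Hist3h2ba: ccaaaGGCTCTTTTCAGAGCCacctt
Hist3h2a: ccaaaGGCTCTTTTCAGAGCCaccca

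The members together took a small part of each library, and after 5-FU that part was smaller. They summed to 532, 563 and 585 CPM in the untreated LGR5+ libraries and to 202, 230 and 258 CPM in the 5-FU LGR5+ libraries, which is 2.43 times lower on the group means (560 ± 26.7 against 230 ± 28.0 CPM, SD, n = 3 each). In LGR5- cells the sum was 532, 611 and 695 CPM untreated and 199, 265 and 267 CPM after 5-FU, 2.51 times lower (613 ± 81.3 against 244 ± 38.8 CPM, SD, n = 3 each). In both fractions every 5-FU library lay below every untreated library. As these are bulk samples, fewer cells of a type and less of the mRNA per cell cannot be told apart.

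The sums of 4 of the 5 classes were lower after 5-FU. Between untreated and 5-FU LGR5+ libraries the H3 sum went from 27.8 ± 3.64 to 8.38 ± 0.822 CPM, the H2A sum from 144 ± 15.8 to 46.0 ± 3.85 CPM, the H1 sum from 112 ± 9.49 to 41.8 ± 9.61 CPM and the H4 sum from 236.7 ± 21.02 to 95.6 ± 28.7 CPM (mean ± SD, n = 3 each), with no overlap between the groups. The H2B sum was 40.21 ± 10.03 CPM untreated and 38.6 ± 6.53 CPM after 5-FU, and these groups overlapped. On the group means Hist1h2bc and Hist3h2ba gave 16.2 and 6.31 CPM of it untreated and 25.6 and 6.65 CPM after 5-FU. In LGR5- libraries they gave 21.7 and 6.99 CPM untreated and 35.0 and 11.4 CPM after 5-FU. The H2B sum therefore does not show that the other H2B genes kept their level. In LGR5- cells the log2 ratios of the sums were -2.20 for H2A, -1.54 for H3, -1.45 for H4, -1.20 for H1 and 0.23 for H2B, and again the groups overlapped for H2B alone. As scores over the members, the sums were not tested. Sums of this kind are weighted by the few genes with most reads: Hist1h4d alone gave 36.6% of the members' 84695 reads, and Hist1h2ao, Hist1h1e, Hist1h2ae and Hist1h1c brought the share to 72.2%. Without these 5 genes the sum of the rest was 135 ± 6.56 CPM in untreated and 73.8 ± 6.49 CPM in 5-FU LGR5+ libraries, 1.83 times lower, and in LGR5- libraries it was 157 ± 25.1 and 95.4 ± 14.4 CPM, 1.65 times lower, without overlap in either fraction. The H4 sum without Hist1h4d was 1.71 times lower in LGR5+ cells and overlapped in LGR5- cells.

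**Figure D1:**
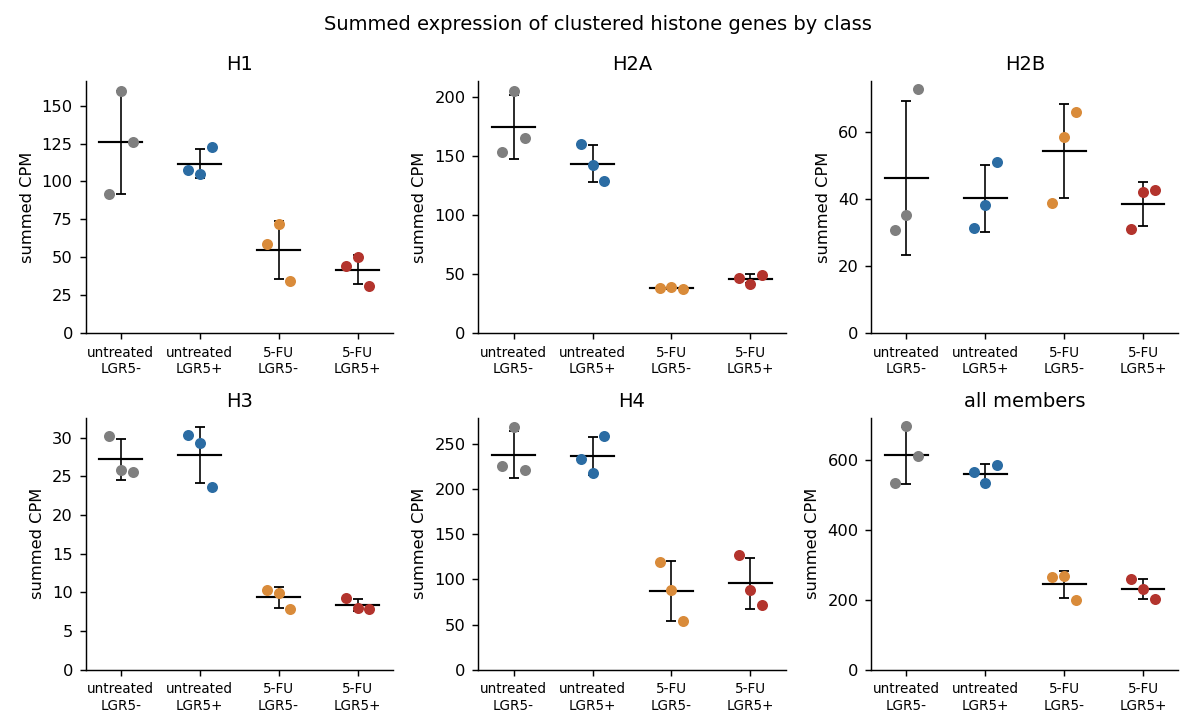
Summed CPM (linear axis from 0) of the clustered histone genes of each class and of all 57 members, with 1 point per library, the group mean as a line and the SD as a bar (n = 3 per group). In H1, H2A, H3 and H4 all 5-FU libraries lie below all untreated libraries of the same fraction, while in H2B the 4 groups overlap, at 30.8 to 72.8 CPM.

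Gene by gene, 46 of the 57 members had enough reads to be tested, namely at least 0.591 CPM (before scaling) in 3 or more libraries. In LGR5+ cells 28 of the 46 fell after 5-FU and 1 rose (edgeR quasi-likelihood test, Benjamini-Hochberg adjusted P under 0.05), whereas among all 16157 genes tested 6.37% fell and 9.66% rose. The median log2 fold change of the 46 was -1.58, against -0.02 for all genes. In LGR5- cells 24 fell and 1 rose, against 7.11% and 8.30% of all genes, with a median of -1.64 against -0.05. Single libraries weighed on these counts: without 5-FU LGR5+ replicate 2 or 3, 13 and 15 members were called in LGR5+ cells, all lower, and without 5-FU LGR5- replicate 3, 15 were called in LGR5- cells. Under the study's own cut-offs, a P under 0.05 and a log change beyond 1.5 in size, taken here as an unadjusted P and a log2 scale because neither is stated, 25 members were lower and 1 higher in each fraction, where 2.81% and 4.42% of all genes were so in the LGR5+ fraction and 2.75% and 4.25% in the LGR5- fraction. Of the tested members, 16 passed the read limit through their untreated libraries and had fewer than 3 5-FU libraries at it, so that their being tested at all rested on a higher untreated level, and their folds and P values below are a description only. They were Hist1h1a, Hist1h2ac, Hist1h2ad, Hist1h2ag, Hist1h2ai, Hist1h2bb, Hist1h2bf, Hist1h2bj, Hist1h2bk, Hist1h2bp, Hist1h2bq, Hist1h3a, Hist1h3b, Hist1h3h, Hist1h4n and Hist2h4. Among all 46 tested, every 5-FU library lay below every untreated one for 36 members in LGR5+ and 27 in LGR5- cells. Of all genes, 20.0% and 13.4% did so. Every 5-FU library lay above every untreated one for 1 member in each fraction, where 22.3% and 13.7% of all genes did. These counts take in the 16 members that entered through untreated libraries, so beside the shares of all genes they are a description only. Of the 30 that reached the read limit in both treatments, 17 fell and 1 rose in LGR5+ cells (median -1.36), and 12 fell and 1 rose in LGR5- cells (median -1.04). The 11 members that were not tested had 211 reads together in the untreated LGR5+ libraries and 62 in the 5-FU LGR5+ libraries, and 247 and 79 reads in the LGR5- libraries.

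**Figure D2:**
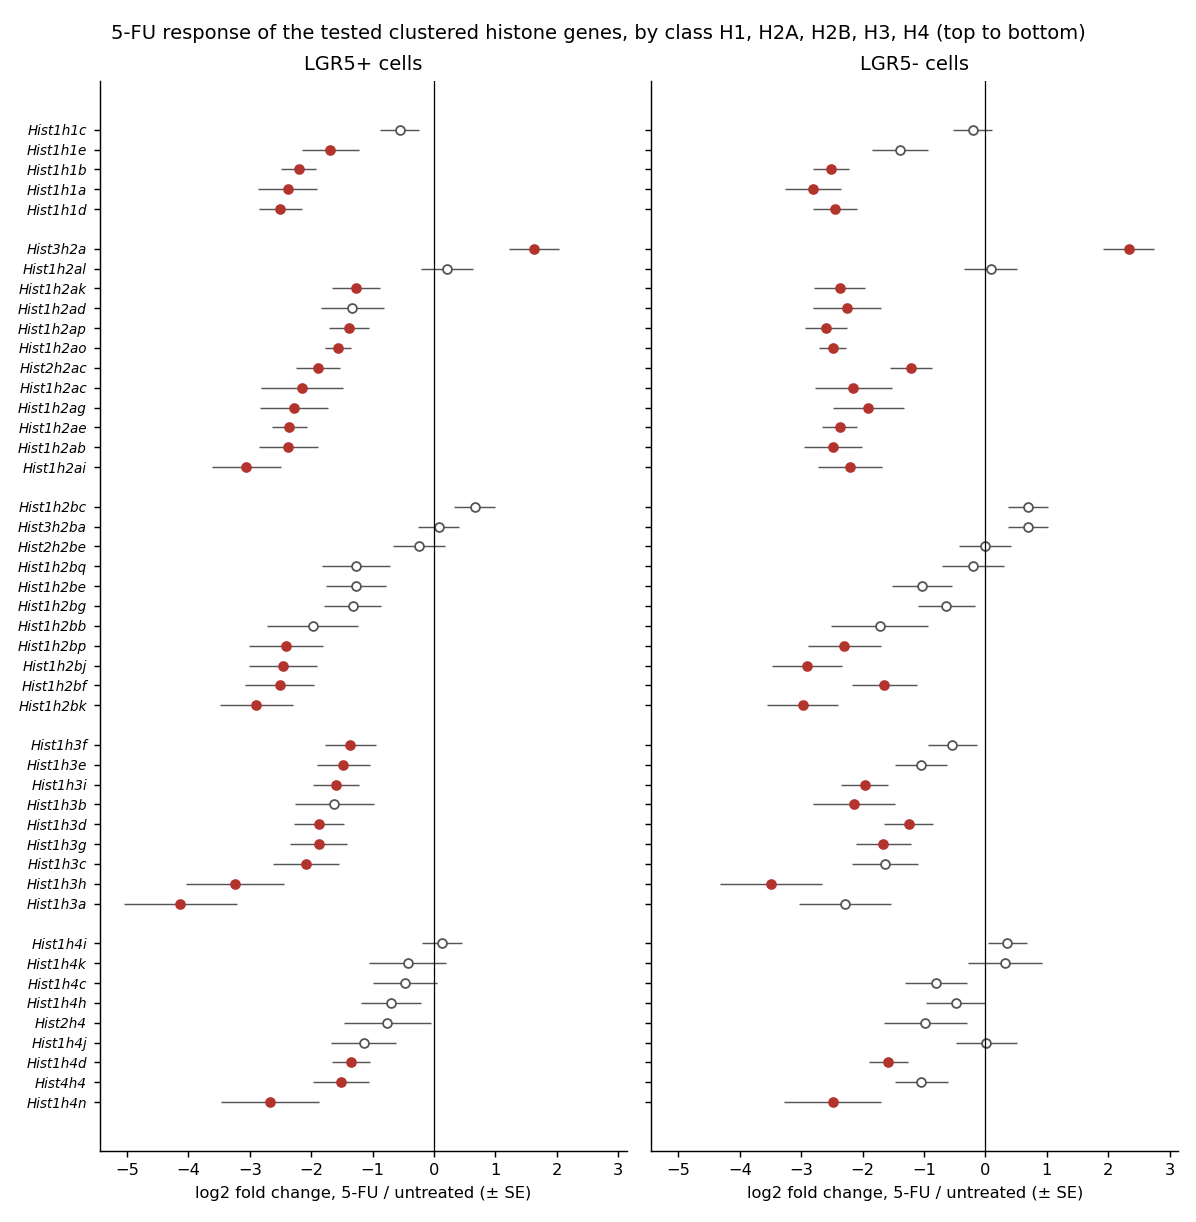
Log2 fold change (5-FU over untreated, point, with its standard error as a bar) of the 46 tested members in LGR5+ cells (left) and LGR5- cells (right), grouped by class, filled where the adjusted P was under 0.05. Most points lie between -1 and -3, and Hist3h2a, at 1.63 and 2.33, is the filled point to the right of 0.

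H1 histones bind the linker DNA between nucleosomes. Of 5 H1 genes tested, 4 fell in LGR5+ and 3 in LGR5- cells, against 6.37% and 7.11% of all genes. Of the 4 at the read limit in both treatments, 3 and 2 fell. Hist1h1b (chr13:21779883-21780625, minus strand, GRCm38, a gene of 1 exon) stood at 14.3, 17.9 and 20.4 CPM in the untreated LGR5+ libraries and at 2.51, 4.13 and 4.78 CPM in the 5-FU LGR5+ libraries. Its log2 fold change was -2.20 ± 0.29 (SE, adjusted P = 0.000128, edgeR) in LGR5+ and -2.52 ± 0.29 (adjusted P = 7.96e-05, edgeR) in LGR5- cells. Hist1h1d and Hist1h1a, at lower levels, fell by 2.51 and 2.38 on the log2 scale in LGR5+ cells and by 2.45 and 2.81 in LGR5- cells. Hist1h1b and Hist1h1d kept their call in both fractions whichever library was left out.

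Hist1h1e, the H1 gene with most reads, had 53.3, 60.4 and 65.0 CPM untreated and 10.7, 21.1 and 23.7 CPM after 5-FU in LGR5+ cells. The groups did not overlap, and the log2 fold change was -1.69 ± 0.46 (SE, adjusted P = 0.0246, edgeR), but the call was lost on leaving out any of the 6 libraries except 5-FU LGR5+ replicate 1, where the adjusted P reached 0.104 (without 5-FU LGR5+ replicate 3), and without a filter on low counts (0.126). In LGR5- cells its log2 fold change of -1.39 missed the threshold (adjusted P = 0.0583, edgeR). The annotated exon of Hist1h1e shares 496 bases on the same strand with Hist1h2be, and how reads there were assigned is not given. Hist1h1c, known for polyadenylated transcripts in non-dividing cells, stood at 20.2, 28.4 and 31.2 CPM untreated and at 13.8, 17.0 and 23.5 CPM after 5-FU in LGR5+ cells, overlapping groups with a log2 fold change of -0.56 ± 0.32 (SE, adjusted P = 0.263, edgeR). In LGR5- cells it was -0.21 (adjusted P = 0.714, edgeR) and turned to 0.21 without untreated LGR5- replicate 3, one of the libraries with a high mitochondrial share, where Hist1h1c was highest (42.5 CPM).

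H2A pairs with H2B in the nucleosome. Of 12 H2A genes tested, 9 fell in LGR5+ and 10 in LGR5- cells, against 6.37% and 7.11% of all genes. Of the 8 at the read limit in both treatments, 6 fell in each fraction. Hist1h2ao (chr13:21810465-21810944, plus strand, 1 exon) stood at 56.7, 78.1 and 85.2 CPM in untreated and 22.1, 23.9 and 28.4 CPM in 5-FU LGR5+ libraries, and at 88.9, 100 and 106 CPM in untreated and 13.3, 18.5 and 20.7 CPM in 5-FU LGR5- libraries. It was thus 2.96-fold lower after 5-FU in LGR5+ cells (adjusted P = 0.000141, edgeR) and 5.62-fold lower in LGR5- cells (adjusted P = 7.75e-06, edgeR). Hist1h2ap, nearly identical in sequence, fell 2.61-fold and 6.05-fold, the former call being lost without 5-FU LGR5+ replicate 2 (adjusted P = 0.0577). The transcripts of Hist1h2ao and Hist1h2ap share 92.7% and 92.2% of their 100-base stretches with other members, so how reads were split between them is uncertain. All 15 H2A members also overlap a gene model on the opposite strand, by 109 to 144 bases, and the libraries carry no strand mark.

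Hist1h2ae, an H2A gene with 30.7% of its stretches shared, had 36.3, 46.9 and 48.3 CPM in untreated and 7.31, 7.92 and 10.4 CPM in 5-FU LGR5+ libraries. The LGR5- libraries had 31.0, 39.5 and 62.5 CPM untreated and 6.59, 7.34 and 11.8 CPM after 5-FU. The fold was nearly the same in both, 5.13 and 5.16 times lower (adjusted P = 6.70e-05 and 0.000108, edgeR), and every 5-FU library lay below every untreated one. Hist1h2ai fell 8.34-fold in LGR5+ and 4.62-fold in LGR5- cells, the latter call being lost with only the compared libraries in the fit (adjusted P = 0.0574), and Hist1h2ak fell 2.41-fold and 5.19-fold, its LGR5+ call being lost on leaving out any library except untreated LGR5+ replicate 3 (adjusted P up to 0.161).

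A single member rose. Hist3h2a (chr11:58954685-58956830, plus strand, 1 exon), an H2A gene of the small Hist3 cluster, stood at 0.956, 1.10 and 1.11 CPM in the untreated LGR5+ libraries and at 1.86, 3.51 and 4.46 CPM in the 5-FU LGR5+ libraries. The LGR5- libraries had 0.555, 0.727 and 0.988 CPM untreated and 2.83, 3.37 and 5.33 CPM after 5-FU. Every 5-FU library was above every untreated one, by 3.09-fold in LGR5+ (adjusted P = 0.0134, edgeR) and 5.04-fold in LGR5- cells (adjusted P = 0.00212, edgeR). In LGR5+ cells the adjusted P rose to 0.0843 without 5-FU replicate 2, 0.0539 without 5-FU replicate 3 and 0.0601 without untreated replicate 3, whereas the LGR5- call held without each library in turn. The model of Hist3h2a runs 1643 bases past its stem-loop and shares 708 exon bases on the same strand with Trim17, a ubiquitin ligase gene that had 0 to 10 reads in each library.

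Of the 11 H2B genes tested, 5 reached the read limit in both treatments, and 0 of these 5 passed the test in either fraction. The 4 H2B genes called lower, in both fractions, were Hist1h2bk, Hist1h2bj, Hist1h2bf and Hist1h2bp. Of all genes, 6.37% fell in LGR5+ and 7.11% in LGR5- cells. Hist1h2bk had 0.983, 1.10 and 1.43 CPM in untreated and 0.055, 0.117 and 0.281 CPM in 5-FU LGR5+ libraries, the lowest value standing for a single read. All 4 entered the test through their untreated libraries, so their falls are a description. The fitted fall of Hist1h2bk was 7.45-fold in LGR5+ and 7.88-fold in LGR5- cells, and that of Hist1h2bj 5.51-fold and 7.52-fold. Hist1h2bf and Hist1h2bp each lost their calls in LGR5+ cells without 5-FU replicate 2 or 3, Hist1h2bp also without untreated replicate 3 (adjusted P up to 0.0769). In LGR5- cells Hist1h2bp lost its call without 5-FU replicate 2 or 3 (up to 0.0677) and Hist1h2bf without any library except untreated replicate 3 (up to 0.164), without a filter, with other scaling factors, with the replicate block, with only the compared libraries and without both libraries numbered 3 (0.0507 to 0.130). Hist1h2bp also lost it without both libraries numbered 3 (0.0748).

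The 4 H2B genes with the highest CPM did not pass the test. Hist1h2bc (chr13:23684199-23692908, plus strand, 2 exons), whose annotated coding transcript is spliced and lacks the stem-loop, had 13.3, 13.9 and 21.3 CPM in untreated and 17.6, 28.2 and 31.0 CPM in 5-FU LGR5+ libraries. The groups overlapped, with a log2 fold change of 0.66 ± 0.33 (SE, adjusted P = 0.201, edgeR) in LGR5+ and 0.69 ± 0.33 (adjusted P = 0.184, edgeR) in LGR5- cells. Hist3h2ba, on chromosome 11 beside Hist3h2a, had log2 fold changes of 0.08 (adjusted P = 0.907, edgeR) and 0.70 (adjusted P = 0.179, edgeR), and Hist2h2be, known for a polyadenylated transcript, -0.25 (adjusted P = 0.746, edgeR) and -0.01 (adjusted P = 0.993, edgeR). Hist1h2bg stood at -1.33 in LGR5+ cells, where the groups did not overlap (adjusted P = 0.0682, edgeR), and at -0.63 in LGR5- cells (adjusted P = 0.399, edgeR). Hist1h2bc alone gave 5.86% of all member reads, more than any other H2B gene.

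**Figure D3:**
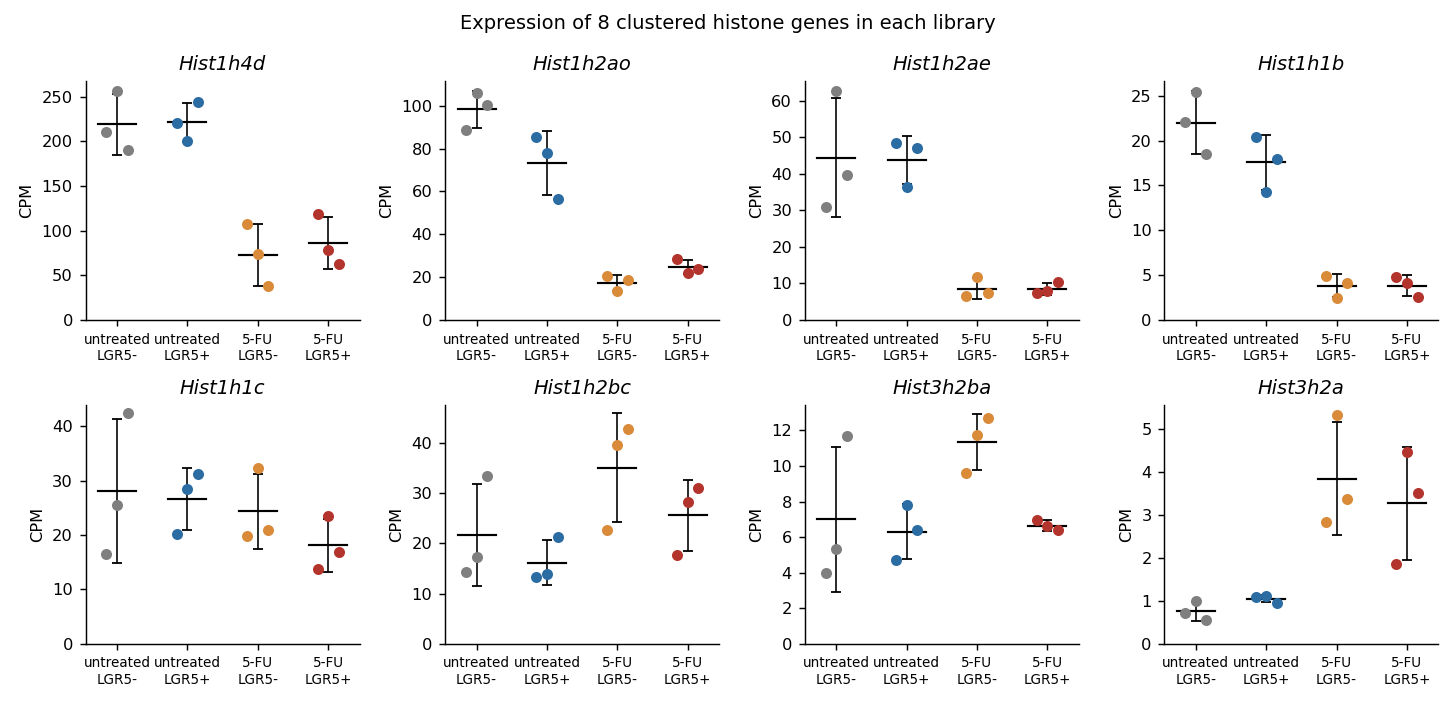
CPM (linear axes from 0) of 8 members in each library, with the group mean as a line and the SD as a bar (n = 3 per group). Hist1h4d, Hist1h2ao, Hist1h2ae and Hist1h1b are lower in all 5-FU libraries, Hist1h1c, Hist1h2bc and Hist3h2ba overlap between untreated and 5-FU LGR5+ libraries, and Hist3h2a is higher in all 5-FU libraries.

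H3 and H4 form the core tetramer of the nucleosome. Of 9 H3 genes tested, 8 fell in LGR5+ and 5 in LGR5- cells, against 6.37% and 7.11% of all genes, and of the 6 at the read limit in both treatments 6 and 3 fell. Hist1h3i, with most reads, had 7.71, 12.7 and 13.0 CPM in untreated and 3.19, 3.27 and 4.61 CPM in 5-FU LGR5+ libraries and fell 3.01-fold (adjusted P = 0.00918, edgeR), a call lost without 5-FU LGR5+ replicate 2 or 3 (adjusted P = 0.0534 and 0.0530). In LGR5- cells it fell 3.91-fold (adjusted P = 0.00347, edgeR). Hist1h3d fell 3.67-fold in LGR5+ and 2.38-fold in LGR5- cells, and Hist1h3g 3.67-fold and 3.16-fold. In LGR5- cells the call of Hist1h3d was lost without untreated replicate 1 or any 5-FU replicate (adjusted P up to 0.164) and that of Hist1h3g without untreated replicate 1 or 5-FU replicate 1 or 3 (up to 0.0948). Both were also lost with only the compared libraries in the fit (0.104 and 0.0885), and Hist1h3d without both libraries numbered 3 (0.0854). In LGR5+ cells Hist1h3g lost it without untreated replicate 3 or 5-FU replicate 2 (up to 0.0688). Hist1h3e fell 2.78-fold in LGR5+ cells (adjusted P = 0.029, edgeR), and lost the call without any library except 5-FU LGR5+ replicate 2 (up to 0.122).

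The lowest fitted values of all members were at Hist1h3a in LGR5+ and Hist1h3h in LGR5- cells, H3 genes with few reads. Hist1h3a had 56 reads in the 3 untreated LGR5+ libraries and 3 in the 3 5-FU LGR5+ libraries, a ratio of depth-scaled reads of 0.0478 with an exact 95% interval for counting error of 0.00958 to 0.147. Its fitted log2 fold change was -4.13 ± 0.92 (SE) in LGR5+ cells. In LGR5- cells Hist1h3a, at -2.29, missed the threshold (adjusted P = 0.0510, edgeR). Hist1h3h had 48 reads in untreated and 5 in 5-FU LGR5+ libraries, a ratio of 0.0930 (interval 0.0289 to 0.232), and 54 and 4 reads in LGR5- libraries, a ratio of 0.0835 (interval 0.0220 to 0.226). Both genes entered the test through their untreated libraries, and the LGR5+ call of Hist1h3h was lost without 5-FU LGR5+ replicate 2 or 3 (adjusted P = 0.0609 and 0.0727, edgeR).

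Of 9 H4 genes tested, 3 fell in LGR5+ and 2 in LGR5- cells, against 6.37% and 7.11% of all genes, and of the 7 at the read limit in both treatments 2 and 1 fell. Hist1h4d (chr13:23581598-23582735, plus strand, 1 exon) had the highest level of any member also per length, 132 CPM per kilobase of exon averaged over the 12 libraries, against 111 for Hist1h2ao and 37.4 for Hist1h2ae, and none of its 100-base stretches is shared with another gene. It had 200, 221 and 244 CPM in untreated and 62.3, 78.7 and 119 CPM in 5-FU LGR5+ libraries, and 190, 211 and 257 CPM in untreated and 38.1, 74.2 and 107 CPM in 5-FU LGR5- libraries. No 5-FU library reached an untreated one, and the level fell 2.55-fold in LGR5+ (adjusted P = 0.00895, edgeR) and 2.99-fold in LGR5- cells (adjusted P = 0.00417, edgeR), the former call being lost without 5-FU LGR5+ replicate 2 or 3 (adjusted P = 0.0522 and 0.0601).

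Hist4h4, on chromosome 6, fell 2.85-fold in LGR5+ cells (adjusted P = 0.0351, edgeR) and Hist1h4n 6.40-fold (adjusted P = 0.0341, edgeR), but both lost the call without untreated LGR5+ replicate 2 or 3 or 5-FU LGR5+ replicate 2 or 3 (adjusted P up to 0.154). In LGR5- cells Hist1h4n fell 5.61-fold (adjusted P = 0.0461, edgeR), a call lost without any library except untreated replicate 2 (up to 0.199), with library size alone (0.0549), with only the compared libraries (0.109) and without both libraries numbered 3 (0.115), and Hist4h4 missed the threshold (adjusted P = 0.128, edgeR). Hist1h4n ranged over the 6 untreated libraries of both fractions from 0.878 to 5.94 CPM. Hist1h4i, the H4 gene with second most reads, had 3.20, 3.41 and 3.58 CPM in untreated and 2.53, 3.98 and 4.62 CPM in 5-FU LGR5+ libraries, a log2 fold change of 0.13 ± 0.33 (SE, adjusted P = 0.837, edgeR), and 0.36 (adjusted P = 0.504, edgeR) in LGR5- cells. Hist1h4h was at -0.70 and -0.49 (adjusted P = 0.376 and 0.552, edgeR).

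Both fractions were compared with their own untreated libraries, and 22 of the 46 members fell in both, as did 4.35% of all genes tested. Of the 30 members at the read limit in both treatments, 12 did. A further 6 passed only the LGR5+ test and 2 only the LGR5- test, while 16 passed neither as lower. The difference between the fractions in their response was tested as an interaction, and 0 of 46 members passed (edgeR, 2 at an unadjusted P under 0.05, DESeq2 0). These 2 were Hist1h2ao and Hist1h2ap, whose fitted fall was smaller in LGR5+ than in LGR5- cells by 0.92 ± 0.29 and 1.21 ± 0.46 on the log2 scale (SE, unadjusted P = 0.0058 and 0.0196, adjusted P = 0.9998 for both, edgeR). Of all genes tested, 0 passed the interaction and 254 had an unadjusted P under 0.05. Under the study's cut-offs 0 members differed, where 0.105% of all genes were higher and 0.322% lower.

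The comparison of sorted fractions asked whether LGR5+ cells differ from LGR5- cells, and for clustered histone genes the tests gave no call. After 5-FU, 0 of 46 members passed (edgeR and DESeq2, 6 at an unadjusted P under 0.05), with a median log2 fold change of -0.31, and among all genes 0 passed, with 2095 at an unadjusted P under 0.05. Without treatment 0 of 46 passed (edgeR and DESeq2, 1 at an unadjusted P under 0.05), with a median of -0.15. Under the study's cut-offs 1 member, Hist1h3a, was lower in LGR5+ cells after 5-FU and 0 were higher, where 1.35% and 0.347% of all genes were. Hist1h3a had 0, 1 and 2 reads in the 5-FU LGR5+ libraries and 12, 1 and 1 in the 5-FU LGR5- libraries. The groups overlapped, and the difference rested on 5-FU LGR5- replicate 1 (unadjusted P = 0.04997, edgeR). Untreated, 0 members passed, where 0.328% of genes were lower and 0.130% higher. Libraries of the 2 fractions did not overlap for 7 members lower and 2 higher in LGR5+ cells after 5-FU, where 10.2% and 14.2% of all genes did the same, and for 1 and 1 untreated, where 2.57% and 2.70% did. In the class sums after 5-FU, the H2A sum was higher in all LGR5+ libraries (41.8 to 49.3 CPM) than in all LGR5- libraries (37.6 to 38.7 CPM), and Hist1h2ao gave 22.1 to 28.4 CPM of it in LGR5+ and 13.3 to 20.7 CPM in LGR5- libraries. The sums of the other 4 classes overlapped, but the H4 sum without Hist1h4d was 1.57 times lower in LGR5+ cells, at 8.26 to 9.57 CPM against 12.4 to 15.5 CPM, with no overlap. Without the 5 genes with most reads, the sum of all members was lower in every LGR5+ library (66.3 to 78.2 CPM) than in every LGR5- library (79.2 to 107 CPM) after 5-FU. This sum is again weighted by few genes. On the group means Hist1h2bc gave 25.6 CPM of it in LGR5+ and 35.0 CPM in LGR5- libraries, and Hist3h2ba 6.65 and 11.4 CPM. Neither gene passed the main test between the fractions. Same-numbered 5-FU libraries of the fractions deviated together from their group means, and a fit with the replicate number as a block on these 6 libraries alone called 1 member, Hist3h2ba, lower in LGR5+ cells (log2 fold change -0.83 ± 0.19 SE, adjusted P = 0.048, edgeR). With the block on all 12 libraries, the call was absent.

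Many H2A and H2B genes start back to back on opposite strands, and 14 such pairs of the annotation have starts 173 to 306 bases apart. In 6 pairs both genes were tested. Of these genes, Hist1h2ag, Hist1h2bj, Hist1h2ad, Hist1h2bf, Hist1h2ac and Hist1h2bq entered the test through their untreated libraries, so the values of their pairs are a description. Hist1h2ag and Hist1h2bj were both called lower, with fitted falls of 2.29 and 2.46 on the log2 scale in the LGR5+ fraction and of 1.91 and 2.91 in the LGR5- fraction. The calls of Hist1h2ag were lost without 5-FU LGR5+ replicate 2 (adjusted P = 0.0708) and without any LGR5- library except untreated replicate 3 (up to 0.121), without a filter (0.102) or with only the compared LGR5- libraries (0.0895). Hist1h2ad and Hist1h2bf were both called lower in LGR5- cells (-2.25 and -1.64, the former lost without 5-FU LGR5- replicate 3, adjusted P = 0.0537), while in LGR5+ cells Hist1h2bf was called (-2.51) and Hist1h2ad, at -1.33, missed the threshold (adjusted P = 0.0929, edgeR). In the other 4 pairs the H2A gene was called lower in both fractions and the H2B gene passed in neither. The widest gaps in LGR5+ cells were at Hist1h2ac and Hist1h2bc, with starts 251 bases apart, where the H2A gene was at -2.15 in both fractions and the H2B gene at 0.66 (LGR5+) and 0.69 (LGR5-), and at Hist2h2ac and Hist2h2be, 239 bases apart, where the H2A gene was at -1.88 and -1.21 and the H2B gene at -0.25 and -0.01. In LGR5- cells Hist1h2ao and Hist1h2bq, at -2.49 and -0.20, and Hist1h2ae and Hist1h2bg, at -2.37 and -0.63, stood further apart than the latter pair. The calls of Hist1h2ac, which had 120 reads in all, were lost without any LGR5+ library except 5-FU replicate 1 (adjusted P up to 0.174) and without any LGR5- library except those numbered 1 (up to 0.124), without a filter (0.0537 and 0.0513), and in LGR5- cells with only the compared libraries (0.0891) or without both libraries numbered 3 (0.132). The LGR5+ call of Hist2h2ac held without each library, and its LGR5- call was lost without untreated replicate 2 or 5-FU replicate 2 or 3 (up to 0.0969), without a filter (0.0846), with only the compared libraries (0.129) and without both libraries numbered 3 (0.089). The difference between the genes of a pair was not tested.

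**Figure D4:**
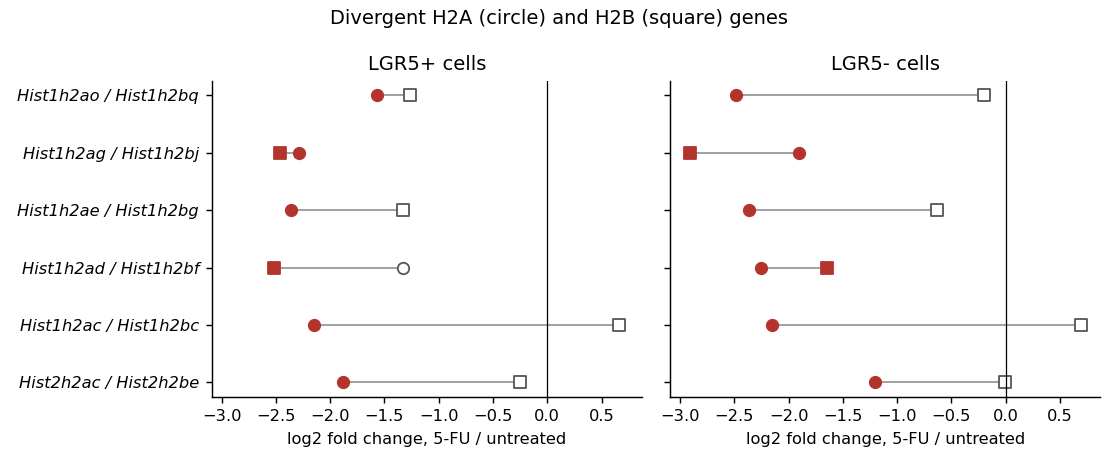
Log2 fold change (5-FU over untreated) of the H2A gene (circle) and the H2B gene (square) of the 6 divergent pairs in which both were tested, filled where the adjusted P was under 0.05. The squares of Hist1h2bc and Hist2h2be lie at 0.66 and -0.25 in LGR5+ cells, to the right of their H2A partners at -2.15 and -1.88.

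Promoter letters were read from RefSeq (GRCm38.p6), which gave a promoter of 300 bases for 48 of the members. CCAAT, the box bound by NF-Y, was present on either strand in 83.3% of them, against 37.4% of 32851 promoters of the table. TATAAA was present in 62.5% against 13.6%, and ATTTGCAT, the octamer bound by OCT1 (Pou2f1), in 18.8% against 1.74%. Both strands were searched, and no motif contains another. CCAAT was in every H1, H2A, H2B and H3 promoter matched and in 3 of 11 H4 promoters, and the octamer was in 6 of 13 H2A and 3 of 12 H2B promoters and in none of the H1, H3 and H4 promoters. The 250 bases before the start are given for the H2A genes of the pairs with the widest gaps in LGR5+ cells and for Hist3h2a, with the motifs on either strand in capitals.
Hist1h2ac (chr13:23683960-23684209, minus strand): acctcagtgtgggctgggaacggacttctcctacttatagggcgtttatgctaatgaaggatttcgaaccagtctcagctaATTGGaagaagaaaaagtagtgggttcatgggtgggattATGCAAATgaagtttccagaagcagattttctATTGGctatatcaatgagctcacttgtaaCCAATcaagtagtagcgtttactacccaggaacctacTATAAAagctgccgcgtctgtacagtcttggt
Hist2h2ac (chr3:96220881-96221130, minus strand): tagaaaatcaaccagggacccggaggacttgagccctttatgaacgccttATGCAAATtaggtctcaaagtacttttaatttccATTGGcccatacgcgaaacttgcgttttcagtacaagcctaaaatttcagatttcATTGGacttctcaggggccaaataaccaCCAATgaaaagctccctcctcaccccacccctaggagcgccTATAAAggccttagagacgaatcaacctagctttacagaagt
Hist3h2a (chr11:58954435-58954684, plus strand): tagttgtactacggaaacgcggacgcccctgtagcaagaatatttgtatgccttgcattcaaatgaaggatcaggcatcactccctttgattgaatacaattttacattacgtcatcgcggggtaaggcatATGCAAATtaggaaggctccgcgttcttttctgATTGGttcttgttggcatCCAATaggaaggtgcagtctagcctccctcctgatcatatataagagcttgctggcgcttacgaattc
All 3 hold CCAAT boxes and the octamer. TATAAA is present in those of Hist1h2ac and Hist2h2ac and absent from that of Hist3h2a, as it is from 6 of the 21 matched promoters of members that fell in both fractions. These letters describe the promoter and not the use of it.

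Transcript ends were described in the same way. Of 34 tested members with the stem-loop in their model, 21 fell and 1 rose in LGR5+ cells, with a median log2 fold change of -1.60, and of the 4 whose model lacks it although it runs past the stop codon (Hist1h2bc, Hist2h2be, Hist1h2bq and Hist1h3g) 1 fell, with a median of -0.76. In LGR5- cells the medians were -1.61 and -0.10. Where AATAAA, the polyadenylation signal, followed the stop codon in a coding transcript, 5 of 14 fell and 1 rose in LGR5+ cells (median -1.21), and 4 fell and 1 rose in LGR5- cells (median -0.60). Of the 25 without it whose model runs past the stop codon, 18 fell in LGR5+ (median -1.87) and 15 in LGR5- cells (median -1.66). In the remaining 7 the model holds no bases after the stop codon, or no coding part, and cannot show a signal. The median over all tested genes was -0.02 and -0.05, none of these splits was tested, and they include the 16 members that entered the test through untreated libraries. Of 29 members with at least 20% of their 100-base stretches shared with another gene, 20 fell in LGR5+ and 17 in LGR5- cells, and of 17 with less, 8 and 7 fell. The former hold 13 of the 16 members that entered through untreated libraries, and without those 16 the counts were 11 and 7 of 16 with shared stretches and 6 and 5 of 14 with fewer.

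The genes around the histone genes were taken from lists. Of 11 genes listed as replication-independent histone genes, most of which are also transcribed outside S phase into mRNAs with poly(A) tails (H2afx gives a stem-loop transcript in S phase as well), 5 fell and 1 rose in both LGR5+ and LGR5- cells, with medians of -0.42 and -0.61. H2afz, encoding the variant H2A.Z, went from 1869 ± 338 to 667 ± 105 CPM in LGR5+ cells (log2 fold change -1.49, adjusted P = 0.0011, edgeR), and Cenpa, the centromeric H3 variant, fell by 1.73 (adjusted P = 0.000231, edgeR). H1fx and H2afv fell by 2.19 and 1.03. The gene that rose, named after its value was seen, was H2afj, an H2A variant gene, from 39.6 ± 2.84 to 82.2 ± 20.998 CPM (log2 fold change 1.05, adjusted P = 0.0064, edgeR).

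Among 18 S phase genes, the cells' replication program, 5 fell in LGR5+ (median -0.97) and 14 in LGR5- cells (median -1.36), and 0 passed the test of the difference. Ccna2, encoding cyclin A, had log2 fold changes of -1.63 and -2.0995 in the LGR5+ and LGR5- fractions, Cdk2 of -1.09 and -1.32, Pola1, the DNA polymerase alpha subunit, of -1.30 and -1.40, and Tyms, the thymidylate synthase gene, of -1.04 and -1.38, and all 4 passed the test in both. Histone chaperones, which carry histones to DNA, fell at 4 of 19 genes in LGR5+ (median -0.57) and 9 of 19 in LGR5- cells (median -1.02). The 4 were Nasp (-1.28), Asf1b (-1.23), Nap1l1 (-0.97) and Npm1 (-0.82).

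Genes of histone mRNA synthesis and processing fell at 3 of 16 in LGR5+ (median -0.42) and 7 of 16 in LGR5- cells (median -0.64). In LGR5+ cells these were Zfp473, a zinc finger protein of the U7 complex (-1.45, adjusted P = 0.0464, edgeR), Srrt (-0.64, adjusted P = 0.0277, edgeR) and Pou2f1 (-0.63, adjusted P = 0.0419, edgeR). Npat stood at -0.60 (adjusted P = 0.0679, edgeR). Of 13 polyadenylation genes, whose products add the tail on which these libraries rest, 1 fell in LGR5+ (median -0.30) and 3 in LGR5- cells (median -0.28). That gene was Nudt21, a cleavage factor (-0.74, adjusted P = 0.0101, edgeR), while Cpsf1 (-0.40), Cpsf4 (-0.49) and Papola (-0.34), the poly(A) polymerase, missed the threshold in LGR5+ cells. Among all genes 6.37% fell in LGR5+ and 7.11% in LGR5- cells.

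**Figure D5:**
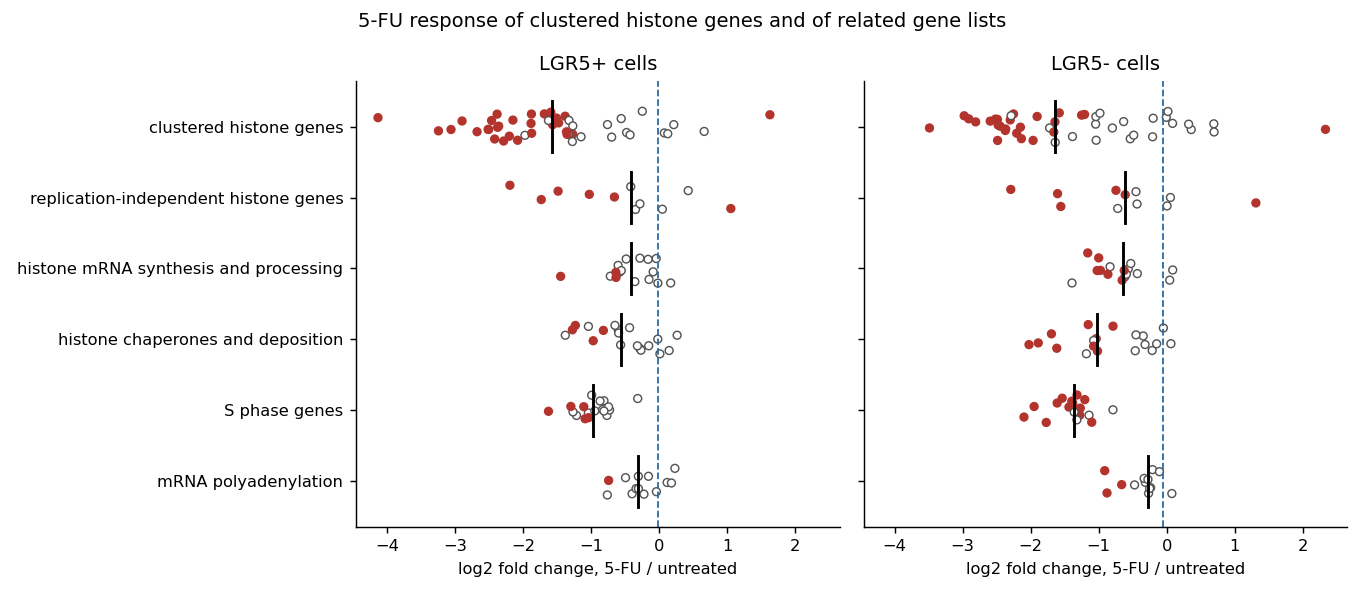
Log2 fold change (5-FU over untreated) of the 46 tested members and of the tested genes of 5 lists in LGR5+ cells (left) and LGR5- cells (right), 1 point per gene, filled where the adjusted P was under 0.05, with the list median as a black line and the median of all tested genes as a dashed line (vertical scatter within a row has no meaning). The member medians are -1.58 and -1.64, and -1.36 and -1.04 over the 30 members at the read limit in both treatments, beside S phase medians of -0.97 and -1.36.

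Cell type markers also moved with 5-FU. The 6 leukocyte markers summed to 19.8 to 39.6 CPM in untreated and 85.1 to 124 CPM in 5-FU LGR5+ libraries, and to 12.3 to 16.5 and 72.9 to 130 CPM in LGR5- libraries, with 2 of 3 tested called higher in each fraction and Cd3e at 3 reads or fewer throughout and Lyz2 and Cd68 giving most of the level. The 3 erythroid markers summed to 0.184 to 0.478 and 33.6 to 52.3 CPM in LGR5+ libraries, nearly all of it Hba-a1, with Hbb-bs at 3 reads or fewer. The cholangiocyte sum was 2832 to 3087 CPM and 7970 to 11872 CPM in the same groups. The hepatocyte sum was 12.1 to 19.7 CPM and 25.97 to 56.4 CPM there, mostly Afp. Of the tested markers, 2 of 5 cholangiocyte and 1 of 2 hepatocyte genes were called higher in each fraction. Of all genes, 9.66% rose and 6.37% fell in LGR5+ cells, and 8.30% rose and 7.11% fell in LGR5- cells. The endothelial sum overlapped between treatments in both fractions, and the fibroblast sum, 48.2 to 49.5 CPM untreated and 26.1 to 42.6 CPM after 5-FU in LGR5+ libraries, overlapped in LGR5- libraries, with 1 of 2 tested fibroblast markers called lower in each fraction. The part of these differences in the histone values was not tested. With both LGR5- libraries numbered 3 left out, 31 members fell in LGR5+ and 17 in LGR5- cells.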

How the data were processed

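The deposited table held raw counts per Ensembl gene for 12 libraries. Per the labels, sorted cells were lysed and amplified with a SMART-Seq v4 kit, and the cDNA was sheared and size-selected; the submitters' processing notes name HISAT2, HISAT, TopHat2, HTSeq and the build mm8, without roles, and the annotation, strand setting and treatment of multiply mapped reads are not given in the sources used here. Gene positions and sequences were read from GENCODE M21 and RefSeq on GRCm38 and describe the annotation, not the counting. Genes were kept by filterByExpr (16157 of 47069), scaled with TMM factors and fitted with edgeR 4.0.16 (glmQLFit, robust; R 4.3.3) over 12 libraries with 1 mean per group; calls were made at a Benjamini-Hochberg adjusted P under 0.05 over all genes tested. The biological coefficient of variation was 26.6%. CPM used TMM-scaled totals and are not corrected for length, and class sums took all 57 members. Standard errors were derived from the fold change and the F statistic. Depth was 13750591 to 19323514 reads; a count of 0 allows up to 3 reads, 0.155 to 0.218 CPM, and intervals and this limit cover counting error only. No libraries agreed within sampling noise (chi-square per degree of freedom 15.1 to 124). Same-numbered libraries deviated together between the 5-FU fractions (correlations 0.217 to 0.571), and were not above 0.1 at every number, the limit used for pairing, in the other comparisons (-0.168 to 0.0184, 0.0546 to 0.425 and -0.119 to 0.481), so numbers were taken as pairs only there; the block is an alternative. The comparisons share libraries: each group enters in more than 1. Other alternatives were the filter, the scaling, the libraries in the fit, DESeq2 1.42.0, the study's thresholds and leaving out libraries. Genes named were up to 4 with the highest mean CPM in each class, up to 5 with the highest and 5 with the lowest fold change among calls in each comparison and the 4 with smallest P in LGR5+ cells in each list; members of divergent pairs were named by position, and other names serve small counts and were chosen after their values were seen. Members and lists were chosen with earlier results of these data known. Hist1h2bh and Hist1h2bm are not analysed here.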

Additional observations from a re-analysis of the deposited data

How the results depend on the processing

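For 5-FU against untreated LGR5+ cells, 29 of the 46 tested members were called. The number was 13 when every library had to hold 10 reads or more, which left 22 members tested, and 13 to 27 with a library left out in turn, falling to 13 without 5-FU LGR5+ replicate 2 and to 15 without replicate 3. For LGR5- cells the 25 calls became 11 with 10 reads in every library, 16 with only the 6 libraries compared in the fit, and 15 to 25 with a library left out, the lowest without 5-FU LGR5- replicate 3. Fewer genes or libraries entered each of these fits. For LGR5+ against LGR5- after 5-FU the 0 calls became 1 under the study's thresholds (Hist1h3a) and 1 with the replicate block on the 5-FU libraries only, which was chosen, like leaving out both LGR5- libraries numbered 3, after seeing the data; they stayed 0 with any library left out. The untreated comparison and the interaction stayed at 0 under every alternative run. With the replicate block on all libraries, 31 and 26 members were called in LGR5+ and LGR5- cells. Leaving out a library moved the log2 ratio of the summed CPM between -1.37 and -1.20 in LGR5+ cells, -1.42 and -1.20 in LGR5- cells, -0.21 and 0.00 between the 5-FU fractions and -0.22 and -0.03 between the untreated fractions. Among the members named by the rule above, fold changes that were not called changed sign as follows. With a library left out in turn, LGR5+ values ran from -0.0903 to 0.26 for Hist3h2ba, -0.48 to 0.12 for Hist2h2be and -0.0594 to 0.34 for Hist1h4i, and LGR5- values from -0.48 to 0.21 for Hist1h1c, -0.27 to 0.48 for Hist2h2be and -0.77 to 0.21 for Hist1h4h. Hist3h2ba in LGR5+ cells was at -0.012 with library size alone, and Hist1h1c in LGR5- cells at 0.31 without both libraries numbered 3. Hist2h2be in LGR5- cells, at -0.0069, became 0.040 without a filter, 0.0047 with 10 reads in every library, 0.018 with DESeq2's size factors, 0.035 with the replicate block, 0.000412 with only the libraries compared, 0.19 without both libraries numbered 3 and 0.016 with DESeq2. The H2A sum between the 5-FU fractions moved from 0.27 to 0.17 with library size alone. The cause of these changes was not tested. Of the 28 LGR5+ falls, 12 held without each library in turn, and of the 24 LGR5- falls, 14. Both counts include Hist1h1a, Hist1h2ai, Hist1h2bj and Hist1h2bk, and also Hist1h3a in LGR5+ and Hist1h3h in LGR5- cells. These members entered the test through their untreated libraries, so that their calls are a description only. Depth limits the members with fewest reads: 11 of 57 could not be tested.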
